A study of Mus musculus with 2 samples.

Results

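Mesenchymal nuclei with Col6a6 and Aldh1a2 were 2644 of the 18897 nuclei that passed the filters, 1366 of 10305 in the Serpine2 cOE library and 1278 of 8592 in the control library. A nucleus was chosen when it had at least 1 UMI (a counted RNA molecule) of at least 3 of 7 genes, Col6a6, Aldh1a2, Col15a1, Unc13c, Unc5c, Grik1 and Kcnk2, with Col6a6 or Aldh1a2 among them. It also had fewer than 2 of 6 genes of other mesenchymal nuclei (Notum, Nkd1, Moxd1, Cbln4, Dio2, Hhip) and fewer than 2 of 4 hair cell genes (Myo3a, Dytn, Loxhd1, Strip2). These 17 genes chose the nuclei, so their values describe the choice and support nothing. Below, "other nuclei" are the 16253 remaining nuclei that passed the same filters.

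The Serpine2 cOE library came from 20 pooled cochleae of Lgr5EGFP-CreER/+,Serpine2loxp/loxp mice. The control library came from 19 pooled cochleae of Serpine2loxp/loxp mice, which lack the driver. All mice received tamoxifen at postnatal day 1 and were taken at day 7, so the control group carried the loxp alleles and the drug too. The driver acts in cells that express Lgr5, and each group was 1 library of pooled mice, so no difference between the groups has a replicate check and no test was made. The sources used here do not describe what recombination leaves at the Serpine2 loxp alleles, and the driver and the state of Serpine2 cannot be told apart. Intervals are 95% intervals that cover counting error only.

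Cochlear mesenchyme surrounds the sensory epithelium and forms the fibrocytes of the lateral wall and spiral limbus and the cells beneath the basilar membrane. In mice, the transcription factors Pou3f4 and Tbx18 act in this mesenchyme, and Tbx18 is needed for fibrocytes to form. Aldh1a2 makes retinoic acid from retinaldehyde. Col6a6 encodes a chain of collagen VI and Col15a1 a collagen found at basement membranes.

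The nuclei had a median of 2593.5 UMIs and 1629.5 genes in Serpine2 cOE and 2519.5 UMIs and 1572.5 genes in control. Other nuclei were somewhat shallower, with medians of 2401 and 2185 UMIs. In sum the chosen nuclei held 4175702 UMIs in Serpine2 cOE and 3729896 in control, so that 3 counts equal 0.718 and 0.804 CPM, where CPM is the number of UMIs of a gene per 1000000 UMIs of the same nuclei. Median mitochondrial shares were 0.410% and 0.267%. The libraries had 27 barcodes in common, none of them among the chosen nuclei of both libraries.

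Col6a6 (chromosome 9, 105564724 to 105705561, minus strand, GRCm39) had 384 CPM (365 to 403) in the chosen Serpine2 cOE nuclei and 468 CPM (447 to 491) in those of control, against 20.6 and 27.7 CPM in other nuclei. Aldh1a2 (chromosome 9, 71122630 to 71203527, plus strand) had 441 CPM (421 to 462) and 365 CPM (346 to 385), against 38.8 and 38.7 CPM. The 2 genes thus had opposite orders between the libraries, with Col6a6 lower and Aldh1a2 higher in Serpine2 cOE. Col15a1 (chromosome 4, 47207582 to 47313179, plus strand) had 243 and 287 CPM, against 46.3 and 55.7 CPM. Of the remaining rule genes, Unc5c, a netrin receptor, had 920 and 1071 CPM against 199 and 247 CPM. Unc13c, which primes synaptic vesicles in neurons, had 685 and 668 CPM against 107 and 113 CPM. Grik1, a kainate receptor subunit, had 743 and 780 CPM against 135 and 193 CPM, and the potassium channel gene Kcnk2 had 510 and 576 CPM against 100.3 and 118 CPM.

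**Figure D1:**
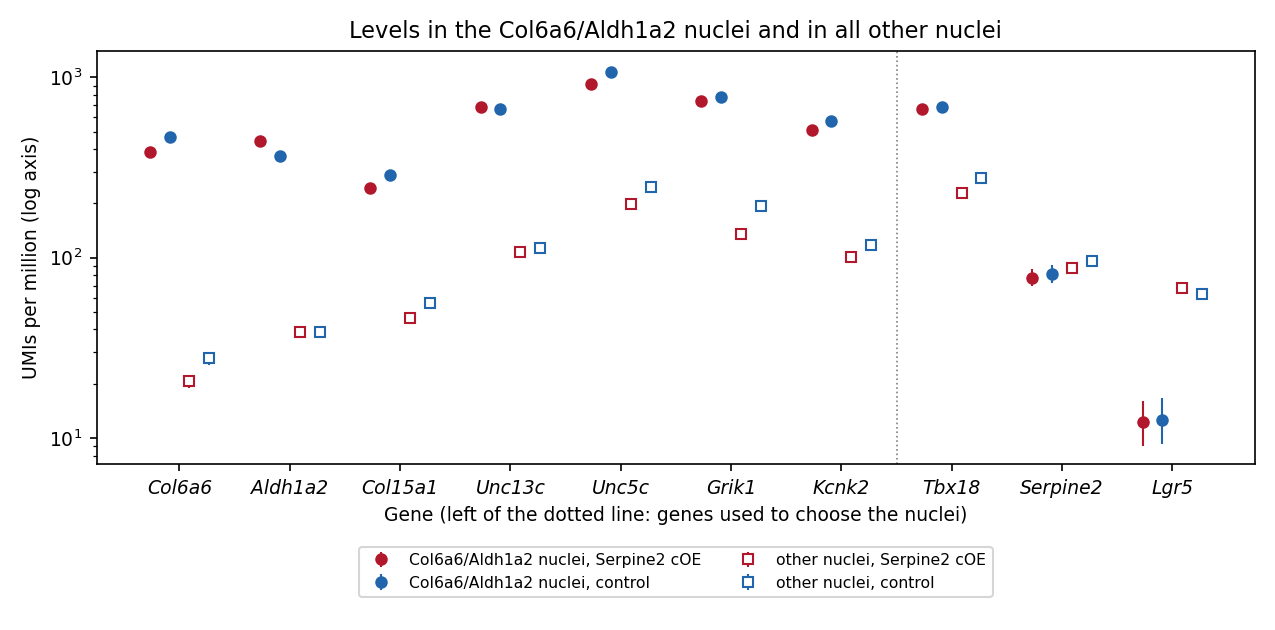
Level in CPM (log axis) of the 7 genes used to choose the nuclei, Tbx18, Serpine2 and Lgr5, in the chosen nuclei (filled) and all other nuclei (open) of the Serpine2 cOE (red) and control (blue) libraries, with 95% counting intervals. Tbx18, which the rule did not use, stood at 665 and 682 CPM in the chosen nuclei against 229 and 278 CPM elsewhere, while Lgr5 was lower in the chosen nuclei.

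The label marker that the rule did not use, Tbx18 (chromosome 9, 87584851 to 87613338, minus strand), was present in 79.1% (76.8 to 81.2) of the chosen nuclei in Serpine2 cOE and 79.6% (77.3 to 81.8) in control. Other nuclei had it in 36.5% and 40.3%. Its level was 665 CPM (641 to 690) and 682 CPM (656 to 709), against 229 and 278 CPM in other nuclei. With each nucleus thinned to 1000 UMIs, the shares were 48.6% and 48.4%, against 20.8% and 24.6%. In macrophage nuclei, which should lack Tbx18 but were also chosen to have few mesenchymal markers, Tbx18 among them, and had median depths of 1768 and 1607 UMIs, it was in 4 of 105 and 6 of 136 thinned nuclei (3.81% and 4.41%). That choice lowers the macrophage share, so it is no independent background. Against other nuclei, Tbx18 went with the label in both libraries.

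The threshold was not a gap in the data. Nuclei with exactly 3 of the 7 genes, just inside, were 314 in Serpine2 cOE and 293 in control, with medians of 2237.5 and 2153 UMIs and Tbx18 at 562 and 550 CPM. Nuclei with exactly 2, just outside but otherwise passing, were 287 and 242, with medians of 2231 and 1985.5 UMIs and Tbx18 at 361 and 464 CPM. At the other end, 57 and 63 nuclei had all 7 genes, with medians of 3804 and 3658 UMIs. Nuclei with more of the 7 genes were thus deeper. A further 251 of 1635 nuclei in Serpine2 cOE and 216 of 1504 in control met the marker part and were put out by the 6 mesenchymal genes, and 29 and 18 by the hair cell genes. Of the chosen nuclei, 45.8% and 45.0% still had 1 of the 6 mesenchymal genes, among which Nkd1, an inhibitor of Wnt signalling, had the most UMIs, at 159 and 178 CPM.

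The chosen nuclei were 13.3% (12.6 to 13.9) of filtered nuclei in Serpine2 cOE and 14.9% (14.1 to 15.6) in control. The first share was 0.891 times the second (0.825 to 0.963). With the rule applied after thinning every nucleus to 1000 UMIs, with 449 and 886 shallower nuclei left out, the shares were 6.43% (634 of 9856) and 8.01% (617 of 7706), a ratio of 0.803 (0.718 to 0.899). Both ratios were below 1. How evenly the dissections sampled mesenchyme was not measured.

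Outside the rule, 261 of 15566 genes with at least 50 UMIs (1.68%) were 2-fold or more higher in the chosen nuclei than in other nuclei of the same library, in both libraries. Another 1170 (7.52%) were 2-fold or more lower in both. Genes for extracellular matrix, for receptors and adhesion molecules best known from neurons, and for transcription factors were among the 25 farthest above. The nuclei were chosen from the same counts, so these values are a description.

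Among the 25, Tnxb, which encodes the matrix glycoprotein tenascin-X, had 35.9 CPM in Serpine2 cOE and 38.1 CPM in control, against 6.17 and 7.31 CPM in other nuclei. Fbn1, the microfibril protein fibrillin-1, had 189.9 and 182 CPM against 44.4 and 51.0 CPM. Col4a6, a collagen IV chain of basement membranes, had 80.7 and 83.9 CPM against 11.5 and 17.2 CPM. Nid2, a nidogen that links laminin to collagen IV, had 65.6 and 82.8 CPM against 18.4 and 23.0 CPM. In each of these matrix genes, both libraries lay at least 3-fold above other nuclei. Hpse2, an inactive relative of heparanase, had 22.0 and 48.8 CPM against 3.86 and 6.58 CPM, and Csgalnact1, an enzyme of chondroitin sulfate synthesis, had 85.7 and 92.5 CPM against 14.7 and 23.5 CPM.

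Dcc, a netrin receptor as is the rule gene Unc5c, had 1538 and 1494 CPM against 294 and 351 CPM. It was in 66.9% and 64.7% of thinned chosen nuclei, in 18.2% and 21.6% of other nuclei, and in 0 of 105 and 2 of 136 macrophage nuclei, where 0 of 105 allows up to 2.86%. Nrxn3, a neurexin of synaptic adhesion, had 5580 and 5583 CPM against 1488 and 1525 CPM, and was in 87.4% and 86.1% of thinned chosen nuclei, 32.5% and 34.7% of other nuclei, and 12.4% and 11.8% of macrophage nuclei. Tafa1 and Tafa4 encode small secreted proteins; Tafa1 had 825 and 937 CPM against 212 and 246 CPM, and Tafa4 44.5 and 48.0 CPM against 8.64 and 7.26 CPM. Grin2b, an NMDA receptor subunit, had 50.8 and 72.1 CPM against 9.22 and 14.4 CPM, and Chrm3, a muscarinic acetylcholine receptor, 161 and 147 CPM against 38.6 and 37.4 CPM. Slc6a13, a GABA transporter, had 51.5 and 63.0 CPM against 10.7 and 12.6 CPM. The receptor of hepatocyte growth factor, Met, had 313 and 254 CPM against 71.0 and 71.7 CPM.

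The remaining genes of the 25 were Clec1a, Vegfd, Osr2, Olfml2a, Prdm6, Kcnip1, Tmem178, Prkg2, Gm2245, Gm48003 and A430027H14Rik, with log2 ratios between 1.84 and 3.03. Clec1a, a C-type lectin, ranked first by the lower of its ratios, which were 2.63 in Serpine2 cOE and 3.03 in control, from 59 and 63 UMIs. A430027H14Rik lies opposite Kcnk2, a gene of the rule, and Gm2245 and Gm48003 lie opposite Fyb1 and Cacna2d3, and how reads of opposite strands were assigned is not given in the sources used here. Gm2245 was more frequent in thinned macrophage nuclei (20% and 37.5%) than in thinned chosen nuclei (7.35% and 9.36%), with 1.15% and 2.34% in other nuclei. At the other end, hair bundle gene Ptprq had 9.82 and 14.2 CPM against 324 and 259 CPM. Ofcc1, Glra1 and Dscaml1 and the transcripts Gm13599, ENSMUSG00000121419, Gm13598 and Gm39653 completed the 8 lowest, with log2 ratios from -4.19 to -6.29. Gm13598 had 0 UMIs in the chosen nuclei of control.

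**Figure D2:**
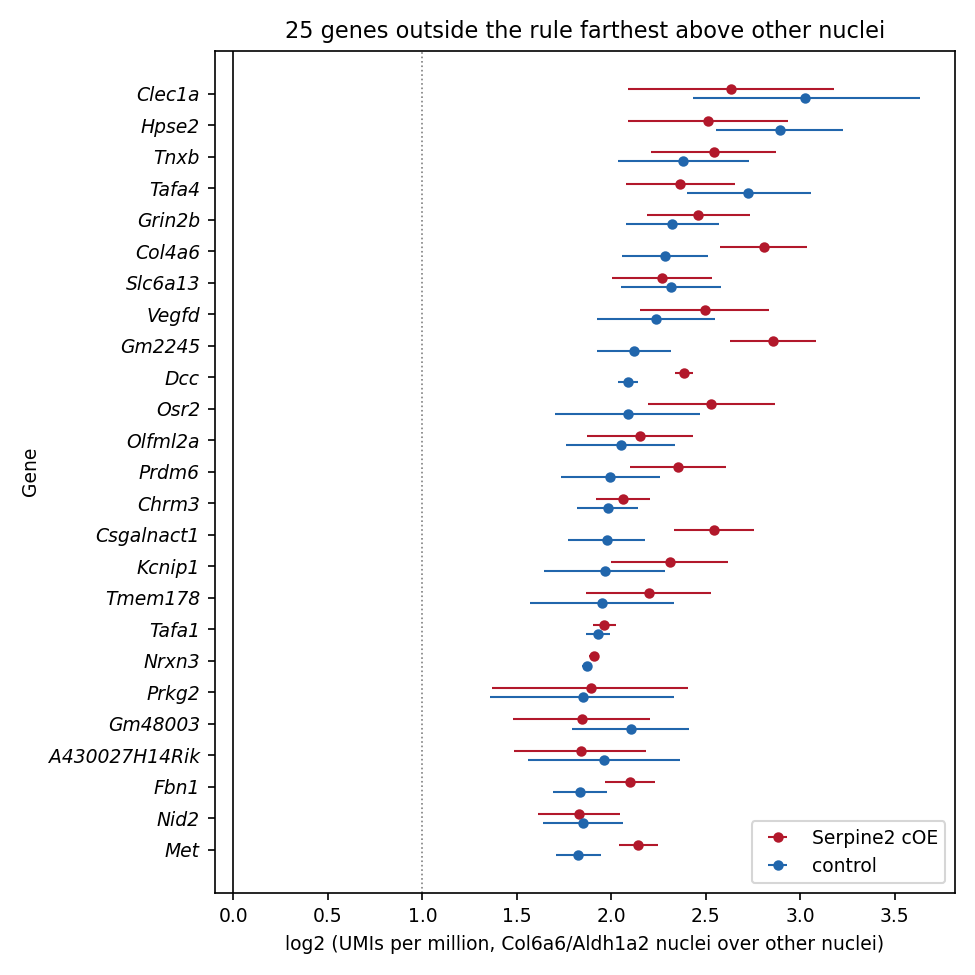
log2 ratio of CPM in the chosen nuclei over all other nuclei for the 25 genes outside the rule that stood highest, in Serpine2 cOE (red) and control (blue), with 95% counting intervals and a dotted line at 2-fold. The points lie between 1.83 and 3.03, and the 2 libraries give similar ratios for most genes, with wider gaps for Col4a6, Gm2245 and Csgalnact1.

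Across 17 lists of genes, the share 2-fold or more higher in both libraries was read against 1.78% of all 17924 genes with at least 20 UMIs, and the share lower against 7.84%. The median log2 ratio of all those genes was -0.08 in Serpine2 cOE and -0.10 in control. Of 40 collagen genes measured outside the rule, 4 were higher (Col4a6, Col23a1, Col6a3, Col26a1) and 6 lower (Col14a1, Col4a3, Col11a1, Col27a1, Col11a2, Col9a3), with medians of -0.31 and 0.02. Col6a3, another chain of collagen VI, had 32.3 and 44.2 CPM against 10.2 and 15.1 CPM, whereas Col6a1 had log2 ratios of only 0.38 and 0.09 and Col6a2 1.07 and 0.39. The fibrillar collagen gene Col3a1 had 372 and 339 CPM against 164 and 175 CPM, and Col1a2 differed little (0.15 and -0.01). The collagens thus did not move as 1 group, and those of cartilage-like matrix (Col11a1, Col11a2, Col9a3) were on the low side.

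Of 37 proteoglycan and glycoprotein genes, 5 were higher (Tnxb, Fbn1, Matn2, Mfap5, Dcn) and 5 lower (Ltbp2, Frem1, Frem2, Fras1, Acan). Dcn, the collagen-binding proteoglycan decorin, had 361 and 270 CPM against 143 and 102 CPM. Its relative Lum had log2 ratios of -0.40 and -0.33. Of 23 basement membrane genes, Nid1 and Nid2 were higher, while 9 were lower, among them the epithelial laminin genes Lama3, Lama5 and Lamb3. Lama2, a laminin chain of muscle and mesenchyme, had 502 and 525 CPM against 336 and 382 CPM.

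Of 18 retinoid genes measured apart from Aldh1a2, none was 2-fold higher in both libraries and 3 were lower, with medians of -0.01 and 0.03. Those lower were Rxrg, a retinoid X receptor (-1.68 and -1.31), Cyp26b1, which breaks down retinoic acid (39.8 and 34.6 CPM against 100.2 and 75.7 CPM), and Aldh1a1, another synthesis enzyme (52.4 and 47.2 CPM against 121 and 101.5 CPM). The receptor gene Rarb, itself a known target of retinoic acid, had 394 and 448 CPM against 242 and 313 CPM, log2 ratios of 0.71 and 0.52. Crabp2, a carrier of retinoic acid in the cell, had 42.4 and 24.9 CPM against 23.7 and 15.7 CPM. The upstream enzyme gene Rdh10 was nearly level, at 18.4 and 17.7 CPM against 19.8 and 14.9 CPM. Cyp26a1 and Cyp26c1 had 0 UMIs in the chosen nuclei of both libraries.

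Mesenchymal transcription factor genes included 8 of 47 that were higher (Osr2, Prrx1, Osr1, Creb5, Meox2, Zfhx4, Tbx18, Foxp2) and 6 that were lower (Sox6, Twist2, Meis1, Runx2, Runx1, Heyl), with medians of 0.07 and 0.01. Prrx1, a homeobox gene of limb and head mesenchyme, had 244 and 206 CPM against 52.8 and 61.5 CPM. Osr1 had 102 and 102 CPM against 29.4 and 33.4 CPM, and its relative Osr2 34.7 and 28.4 CPM against 6.02 and 6.69 CPM. Creb5 had 1837 and 2208 CPM against 526 and 747 CPM. Runx2, which drives bone formation, had 58.4 and 68.6 CPM against 131 and 144 CPM. Pou3f4 had smaller ratios, 0.83 and 0.44. Ebf1 was slightly lower, at 4150 and 4151 CPM against 5012 and 4742 CPM, and was in 90.3% and 90.6% of other nuclei.

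**Figure D3:**
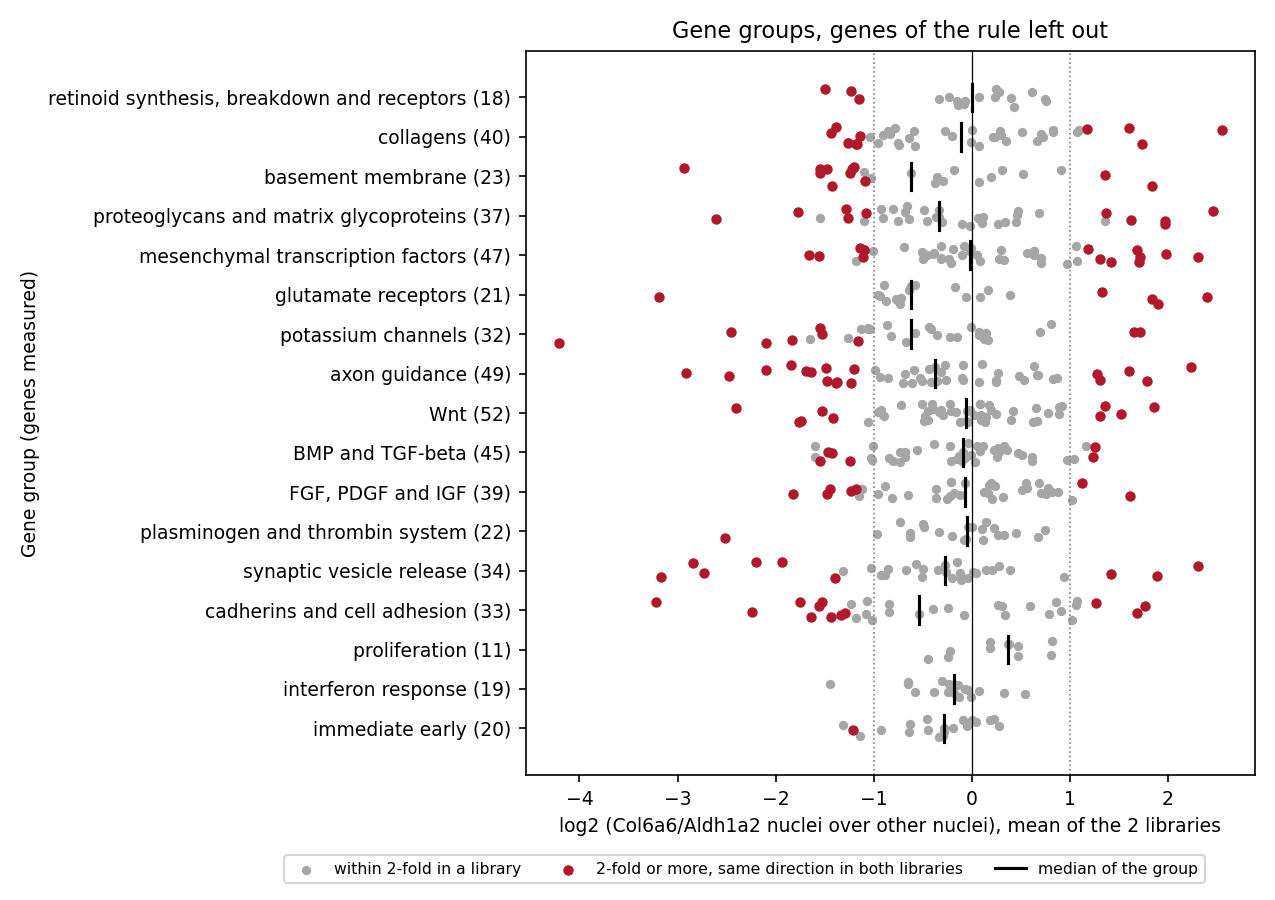
Each point is 1 gene of a list, placed by its log2 ratio of the chosen nuclei over other nuclei (mean of the 2 libraries), genes of the rule left out, with the list's median as a bar and dotted lines at 2-fold. Red points were 2-fold or more apart in the same direction in both libraries, which 8 of 47 mesenchymal transcription factor genes were on the high side and none of 18 retinoid genes was.

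Of 49 axon guidance genes, 5 were higher (Dcc, Unc5d, Plxnc1, Sema3d, Rgmb) and 12 lower, among them Slit3, Nrp2 and Ntn1, the gene of netrin-1. Unc5d had 383 and 457 CPM against 125 and 117 CPM, and Ntn1 18.2 and 16.4 CPM against 43.9 and 37.3 CPM. The netrin receptor gene Unc5b was among the 12 lower. Of 21 glutamate receptor genes, 4 were higher (Grin2b, Grm4, Gria3, Grm7) and Gria2 was lower. The AMPA receptor subunit gene Gria3 had 403 and 402 CPM against 109 and 117 CPM. Of 34 genes of synaptic vesicle release, Syt10, Nrxn3 and Stxbp5l were higher, and 6 were lower, among them Rims2 and Syt7. Kcnq3 and Kcnt2 were higher among 32 potassium channel genes, with Kcnq3 at 378 and 334 CPM against 124 and 104 CPM, and 7 were lower. Of 33 adhesion genes, Cdh11, a cadherin of mesenchyme, had 601 and 615 CPM against 160 and 199 CPM, Pcdh9 and Pcdh19 were higher too, and 9 were lower.

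In the Wnt list 4 of 52 were higher (the ligand genes Wnt16 and Wnt6, the Wnt enhancer Rspo1 and the inhibitor Nkd2) and 5 lower (Lgr5, Dkk2, Wif1, Wnt7b, Rspo2). Rspo1 had 37.1 and 30.6 CPM against 11.3 and 12.2 CPM, and its relative Rspo2 13.9 and 10.5 CPM against 45.6 and 26.5 CPM. Axin2, a common target of the pathway, was at 85.5 and 101 CPM against 63.0 and 76.9 CPM. Of 45 BMP and TGF-beta genes, the coreceptor gene Tgfbr3 and the matrix gene Tgfbi were higher and 4 were lower, and of 39 FGF, PDGF and IGF genes Spry4 and Fgf1 were higher and 5 lower. Fgf1 had 140 and 197 CPM against 65.6 and 89.1 CPM. Of 22 plasminogen and thrombin genes, none was higher and only Lrp8 was lower, near the shares of all genes. No gene of the proliferation list (11 measured) or interferon list (19) was 2-fold apart, and of 20 immediate early genes Nr4a3 was lower. At least 3 of 14 proliferation markers were seen in 2 of 1361 thinned nuclei in Serpine2 cOE and 3 of 1261 in control. Thinned other nuclei had them in 8 of 8495 and 14 of 6445. Without thinning, the shares were 0.659% and 0.626% of the chosen nuclei, against 0.224% and 0.369% of other nuclei.

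Markers of other cell types were summed in the same way, and their part in the values above was not tested. The labels name hair and supporting cells as the cell type, but in the chosen nuclei the hair cell list stood at 630 and 589 CPM, of which Pcdh15 supplied 448 and 447, against 826 and 723 CPM in other nuclei. Only 1 of 14 hair cell markers was higher than in other nuclei, and Atoh1 was at 0 in control. Supporting cell markers summed to 3328 and 3115 CPM against 2728 and 2255 CPM, with Slc1a3 supplying 2442 and 2483, and 1 and 2 of 15 genes were higher than elsewhere. Glial markers were at 183 and 156 CPM against 343 and 291 CPM, macrophage markers at 218 and 224 CPM against 248 and 298 CPM, and epithelial markers at 333 and 196 CPM against 550.3 and 379 CPM. Endothelial markers were at 563 and 549 CPM against 445 and 555 CPM, of which Emcn alone was 482 and 469, and 5 of 10 genes were higher than elsewhere in each library. Tek (log2 ratios 1.26 and 0.90), Cdh5 (0.46 and 0.15) and Flt1 (0.42 and 0.24) were above other nuclei in both libraries. Below them in both were Pecam1 (-0.10 and -0.56), Kdr (-0.01 and -2.09) and Erg (-1.76 and -1.61), with Kdr and Erg at no more than 8 UMIs per library. The remaining genes differed in direction between the libraries. Pecam1 (5.03 and 4.83 CPM), Tie1 and Cldn5 were at or below 5.03 CPM. They were low in other nuclei as well, with Pecam1 at 5.40 and 7.10, Tie1 at 0.347 and 0.674 and Cldn5 at 0.579 and 0.778 CPM. After thinning, 3.23% and 3.17% of the chosen nuclei had 2 or more endothelial markers, against 1.66% and 1.83% of other nuclei. Markers of neurons summed to 1225 and 1173 CPM against 1117 and 1104 CPM, with Syt1 supplying 1000 and 998, and 3 and 4 of 11 genes were higher than elsewhere. Gap43 (log2 ratios 1.94 and 1.71) and Snap25 (0.83 and 1.06) were higher in both libraries, and Prph was at 0 in control.

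The list of meningeal fibroblast markers was higher, at 441 and 371 CPM against 239 and 232 CPM, with 7 and 6 of 12 genes above other nuclei by any amount. Slc6a13, Ranbp3l (128 and 116 CPM against 36.9 and 51.0 CPM) and Cldn11 (78.1 and 68.4 CPM against 25.6 and 27.2 CPM) led it. Slc22a6 and Slc22a8 were at 0 in both libraries, which allows up to 0.718 and 0.804 CPM. Other nuclei were below those limits too, at 0.116 and 0.156 CPM for Slc22a6 and 0.309 and 0.311 CPM for Slc22a8. Ptgds, Dapl1 (log2 ratios -0.97 and -2.01) and Slc13a4 (4 and 3 UMIs) were lower than in other nuclei. The fibrocyte list was at 1816 and 1647 CPM against 1563 and 1563 CPM. There, Coch, Otor and Slc26a4 were lower, with Coch at 10.1 and 9.92 CPM against 25.2 and 15.3 CPM. Mesenchymal markers were above other nuclei in 13 and 12 of 18 genes. Whether any of the nuclei came from tissue outside the cochlea was not tested.

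Among the other nuclei, 3 groups were set beside the chosen nuclei. A nucleus belonged to a group when it had at least 1 UMI of every gene naming it, and to 1 group only. No further mesenchymal marker was asked for and hair cell nuclei were not left out, so the groups may hold other cells. Nuclei with Notum and Nkd1 numbered 1263 in Serpine2 cOE and 841 in control, nuclei with Opcml and Moxd1 477 and 519, and nuclei with Runx2, Dio2 and Coch 63 and 36. Against the first, 271 of 11476 genes (2.36%) were 2-fold or more higher in the chosen nuclei in both libraries and 287 (2.50%) lower. Against the second, 178 of 10652 (1.67%) were higher and 92 (0.864%) lower, and against the third 472 of 9665 (4.88%) and 340 (3.52%). The third group held only 201540 and 138491 UMIs, so that 3 counts equal 14.9 and 21.7 CPM there. In the first group 3 counts equal 0.754 and 1.15 CPM, and in the second 2.05 and 1.92 CPM. The counts of genes therefore do not rank the 3 groups by how much they differed. Dcc, at 1538 and 1494 CPM in the chosen nuclei, had 314 and 341 CPM with Notum and Nkd1, 566 and 579.8 CPM with Opcml and Moxd1, and 154 and 116 CPM with Runx2, Dio2 and Coch. Tbx18, at 665 and 682 CPM, stood between 291 and 387 CPM in all 3 groups. Rarb, at 394 and 448 CPM, was instead close to the first group (387 and 430 CPM) and below the second (473 and 491 CPM). The hair bundle gene Ptprq was at 138 and 152 CPM in the first group, against 324 and 259 CPM in all other nuclei. Ibsp, bone sialoprotein, was at 1429 and 152 CPM in the third, against 71.6 and 19.8 CPM in all other nuclei.

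The genes farthest above nuclei with Notum and Nkd1 were Gm32509, Gm15866, Tnxb, Hpse2 and Chrm3, with Tnxb at 35.9 and 38.1 CPM against 4.28 and 3.06 CPM. Gm32509 and Gm15866 lie opposite Dscam and C1qtnf7. Tafa4, Adgrd1, Tafa1, Vegfd and Grin2b were farthest above nuclei with Opcml and Moxd1, with Tafa1 at 825 and 937 CPM against 109 and 116 CPM. Over nuclei with Runx2, Dio2 and Coch, the 5 genes were 8030451O07Rik, Nrxn3, Creb5, Gm15398 and Stxbp5l, with Creb5 at 1837 and 2208 CPM against 104 and 72.2 CPM. In that shallow group these genes rested on 2 to 42 UMIs, Creb5 on 21 and 10. Nrxn3 was thus above each of the 3 groups, at 5580 and 5583 CPM against 1133 and 1205, 1006 and 1009, and 184 and 303 CPM.

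The chosen nuclei were divided by which of the 2 genes that name them had a UMI. In Serpine2 cOE 533 nuclei (39.0%, 36.4 to 41.7) had Aldh1a2 without Col6a6, 423 (31.0%, 28.5 to 33.5) Col6a6 without Aldh1a2, and 410 (30.0%) both. In control the order was turned, with 384 (30.0%, 27.5 to 32.6), 492 (38.5%, 35.8 to 41.2) and 402 (31.5%). Median depths were 2588, 2487 and 2774.5 UMIs in Serpine2 cOE and 2523, 2326 and 2688.5 UMIs in control. A missing UMI does not show that a gene was silent. The rule asked for either gene, and UMIs of both were few. The 1366 chosen Serpine2 cOE nuclei held 1603 UMIs of Col6a6 and 1842 of Aldh1a2, and the 1278 of control 1747 and 1362. The split by itself therefore cannot decide whether the chosen nuclei differed from each other in these 2 genes.

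Between nuclei with only Aldh1a2 and nuclei with only Col6a6, 7 of 9372 genes (0.0747%) were 2-fold or more higher in both libraries and 7 (0.0747%) lower. Ctnna2, which encodes the neural alpha-catenin, had 362 and 302 CPM with only Aldh1a2, against 90.6 and 127 CPM with only Col6a6. The intervals of its log2 ratio were 1.70 to 2.31 in Serpine2 cOE and 0.98 to 1.53 in control. The transcript 8030451O07Rik was higher too, at 390.1 and 462 CPM against 167 and 219 CPM. Chst2, Popdc3, Pthlh and Notch3 completed the 6 farthest above, from 22 to 51 UMIs in nuclei with only Aldh1a2, and the interval for Pthlh in Serpine2 cOE included 0 (-0.07 to 2.23). Farthest below were Nat8f3, Nell1os, Trpc5, Parp9 and Rnf40, which rested on 23 to 47 UMIs in nuclei with only Col6a6, and Nell1os lies opposite Nell1. The interval for Nell1os in control included 0.

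Of the rule genes, Unc5c was lower with only Aldh1a2 (646 and 853 CPM against 1223 and 1314 CPM) and Grik1 higher (794 and 958 CPM against 600.2 and 620.4 CPM) in both libraries. Col15a1 was lower in Serpine2 cOE, at 185 against 326 CPM, and differed little in control, at 272 against 297 CPM. Tbx18 was level, at 648 and 675 CPM against 656 and 677 CPM. Rarb and Cyp26b1 were chosen here after their values were seen. Rarb was at 382 and 392 CPM against 424 and 489 CPM, lower in both libraries with the retinoic acid enzyme, with an interval that included 0 in Serpine2 cOE. Cyp26b1 went opposite ways, at 46.3 against 28.0 CPM in Serpine2 cOE and 16.4 against 34.6 CPM in control.

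**Figure D4:**
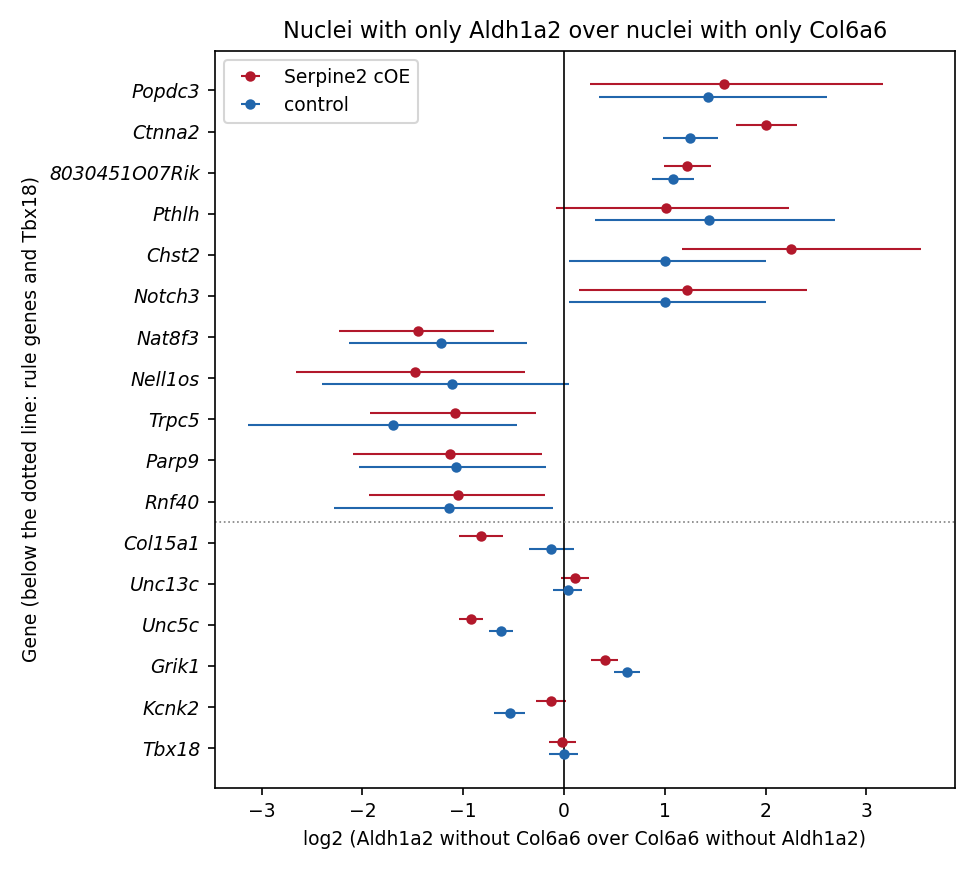
log2 ratio of CPM in nuclei with Aldh1a2 and no Col6a6 over nuclei with Col6a6 and no Aldh1a2, in Serpine2 cOE (red) and control (blue) with 95% counting intervals. Ctnna2 and 8030451O07Rik lie above 1 in both libraries with narrower intervals than the other 4 genes named as higher, Unc5c lies below 0 and Grik1 above 0 in both libraries, and Tbx18 lies at 0.

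Serpine2 (chromosome 1, 79763323 to 79839144, minus strand), a secreted protease inhibitor, had 324 UMIs in the chosen Serpine2 cOE nuclei, or 77.6 CPM (69.4 to 86.5), and 303 UMIs in the chosen control nuclei, or 81.2 CPM (72.3 to 90.9). The log2 ratio was -0.07 (-0.30 to 0.16), and -0.14 (-0.23 to -0.05) in other nuclei. These counts may include or miss transcripts of the construct, so they do not check the label. Lgr5, whose locus carries the driver, was at 12.2 CPM (9.09 to 16.1) and 12.6 CPM (9.26 to 16.8), against 67.8 and 63.3 CPM in other nuclei. A UMI of Lgr5 was in 0.735% and 0.872% of thinned chosen nuclei, at or below the 1.90% of macrophage nuclei in Serpine2 cOE, where 2 of 105 had one, and within the 2.21% that 0 of 136 allows in control. With only 105 and 136 macrophage nuclei, these shares cannot decide whether Lgr5 in the chosen nuclei was above background.

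Between the libraries, 72 of 12135 genes with at least 50 UMIs (0.593%) were 2-fold or more higher in the chosen nuclei of Serpine2 cOE than of control, and 56 (0.461%) were 2-fold or more lower. Of the label's genes, of which the rule used the first 3, the log2 ratio was -0.29 (-0.39 to -0.19) for Col6a6, 0.27 (0.17 to 0.37) for Aldh1a2, -0.24 (-0.37 to -0.12) for Col15a1 and -0.04 (-0.12 to 0.04) for Tbx18. Among the 25 genes above, Hpse2 differed most between the libraries, at 22.0 and 48.8 CPM (-1.15, -1.52 to -0.78), and -0.77 in other nuclei. In other nuclei Col6a6 and Col15a1 were lower in Serpine2 cOE as well (-0.43 and -0.27), and Aldh1a2 was level (0.00).

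The 12 genes farthest above control were Tubb3, 6330411D24Rik, D730003I15Rik, Ibsp, Uprt, 2310002F09Rik, Ptx3, Pycrl, Mansc1, Mecom, Ndufaf1 and Prss23, from 39 to 171 UMIs in Serpine2 cOE and 11 to 43 in control. Tubb3, a neuronal tubulin, had 51 UMIs (12.2 CPM) in Serpine2 cOE and 11 UMIs (2.95 CPM) in control. Its log2 ratio was 2.05 (1.09 to 3.14), and 1.47 in other nuclei. Of the 11 neuron markers, Stmn2 (1.84, 0.69 to 3.17), Nefm (1.37, 0.60 to 2.21), Nefl (0.95, 0.13 to 1.81) and Map2 (0.59, 0.28 to 0.92) were also higher in Serpine2 cOE. They were higher in other nuclei too, with Stmn2 at 12.1 and 6.95 CPM and Map2 at 221 and 141 CPM. The intervals of Nefh, Rbfox3, Snap25, Syt1 and Gap43 included 0, and Prph had 2 and 0 UMIs. The whole list differed by 0.06 (0.004 to 0.12). The part of these markers in the Tubb3 value was not tested. Ibsp, bone sialoprotein of osteoblasts, had 33.8 and 10.5 CPM (1.69, 1.17 to 2.24), and 1.85 in other nuclei, where it was also more abundant (71.6 and 19.8 CPM). In control, all 12 were below their level in other nuclei, an outcome that choosing them for a high ratio over control favours. In Serpine2 cOE, D730003I15Rik, Uprt, Pycrl, Mansc1 and Ndufaf1 were above other nuclei (log2 ratios of 0.40 to 0.78) and the rest of the 12 below. For 6330411D24Rik (1.83), 1 nucleus held 51 of 171 UMIs in Serpine2 cOE. Its ratio was 1.39 without the nucleus with most UMIs in each library, 0.99 with each nucleus weighted equally and 0.35 with the rule applied after thinning. Mecom (1.42) and 2310002F09Rik (1.48), which lies opposite genes of the Klk family, reversed to -1.06 and -0.06 under that last setting.

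The 12 genes farthest below control were Fosb, Gm57200, Pstpip1, Fos, 9630013A20Rik, Gm38102, Cacng4, 4933417D19Rik, Gm16168, Gm13091, Gm12786 and Xdh. Fosb, an immediate early gene, had 9 UMIs (2.16 CPM) in Serpine2 cOE and 45 UMIs (12.1 CPM) in control. Its log2 ratio was -2.48 (-3.70 to -1.43), and -1.28 in other nuclei. Fos had 5.99 and 21.2 CPM (-1.82, -2.53 to -1.16), and -0.99 in other nuclei. Egr1, of the same class, had 31.9 and 59.0 CPM (-0.89, -1.21 to -0.57), and -1.02 in other nuclei. Fosb, Fos and Egr1 were lower in Serpine2 cOE inside and outside the chosen nuclei. Of 16 immediate early genes with at least 20 UMIs, only Fosb and Fos were 2-fold or more lower in the chosen nuclei, and 0 were higher. The median of these 16 was -0.22, against 0.01 over all genes, of which 1.56% were 2-fold or more lower. Xdh, xanthine dehydrogenase, had 8.14 and 23.3 CPM (-1.52), and -1.13 in other nuclei. All 7 transcripts named only by number lie opposite another gene, so their values are uncertain. Of these, 9630013A20Rik (-1.72) lies opposite Pcdh17 and was at 0.21 in other nuclei. Its ratio was -0.54 when 4 of the 7 rule genes were required.

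**Figure D5:**
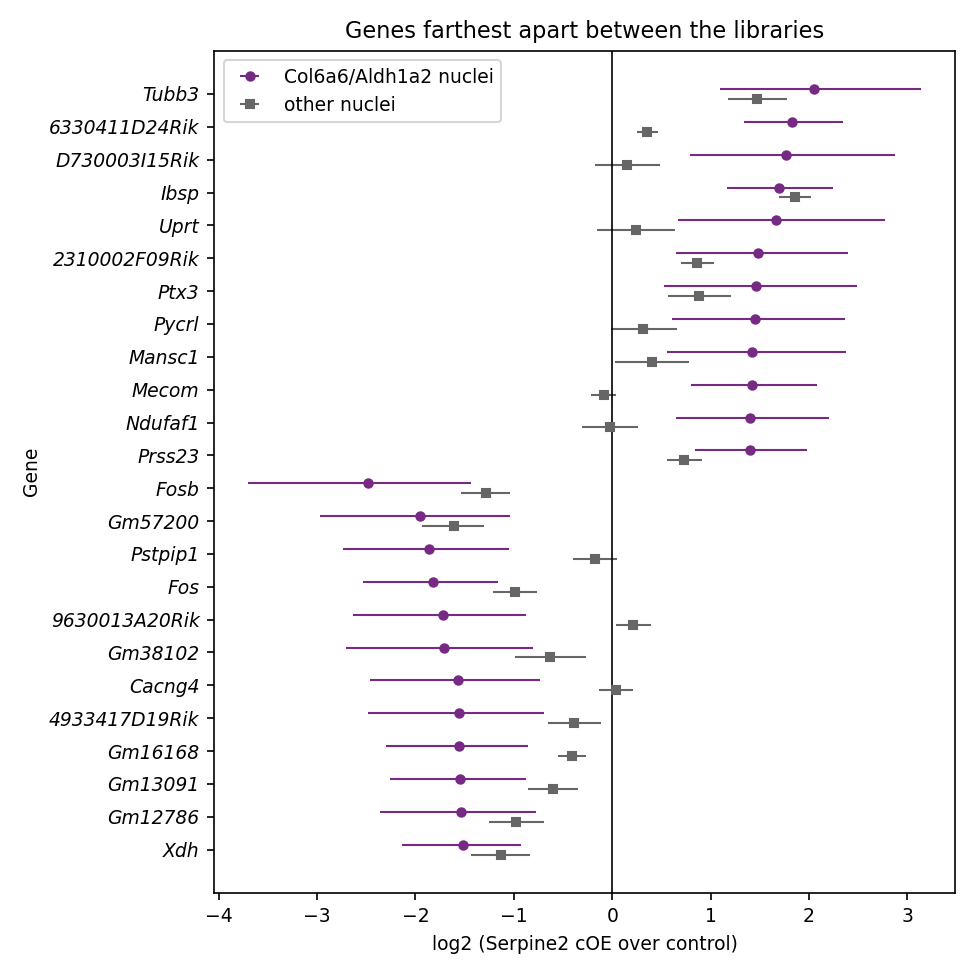
log2 ratio of Serpine2 cOE over control for the 12 genes farthest each way, in the chosen nuclei (purple circles) and in other nuclei (grey squares), with 95% counting intervals. Tubb3, Ibsp, Fosb, Fos and Xdh lie on the same side in both sets of nuclei, whereas Mecom, Ndufaf1 and Cacng4 lie near 0 in other nuclei.

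In the lists, 229 of 14767 genes with at least 20 UMIs (1.55%) were 2-fold or more higher in Serpine2 cOE and 230 (1.56%) 2-fold or more lower, with a median of 0.01 over all. None of 18 retinoid, 45 transcription factor, 45 axon guidance, 51 Wnt or 42 BMP and TGF-beta genes was 2-fold apart. Col1a1, the main collagen of bone and tendon, was the 1 of 34 collagens that was 2-fold lower, with 7.90 and 19.6 CPM (-1.31, -1.95 to -0.70). Higher were Fgf10 (18.2 and 7.24 CPM, 1.33, 0.68 to 2.02) and Fgf7 (21 and 7 UMIs) among 37 growth factor genes, and Cadm2 (41.9 and 19.8 CPM, 1.08, 0.68 to 1.49) among 28 adhesion genes. Both Fgf10 and Cadm2 were less abundant in the chosen nuclei than in other nuclei of the same library. Crabp2 had 42.4 and 24.9 CPM (0.77, 0.40 to 1.14), Lum 181 and 102 CPM (0.82, 0.64 to 1.01) and Dcn 361 and 270 CPM (0.42, 0.30 to 0.54). Lum and Dcn were higher in Serpine2 cOE in other nuclei by 0.89 and 0.48, so their difference was not particular to the chosen nuclei. Other nuclei also had more Crabp2 (23.7 and 15.7 CPM) and less Col1a1 (14.8 and 23.5 CPM) in Serpine2 cOE than in control. Summed markers also differed between the libraries in the chosen nuclei, by 0.76 (0.63 to 0.89) for epithelium, 0.50 (0.33 to 0.66) for erythroid cells, 0.25 (0.15 to 0.35) for meningeal fibroblasts, 0.24 (0.08 to 0.39) for glia and 0.16 (0.08 to 0.24) for osteoblasts or chondrocytes. In other nuclei these sums were higher in Serpine2 cOE as well, at 550 and 379 CPM for epithelium and 188 and 147 CPM for erythroid cells. They were 239 and 232 CPM for meningeal fibroblasts, 343 and 291 CPM for glia and 1190 and 1116 CPM for osteoblasts or chondrocytes. For the other 9 lists the log2 ratio in the chosen nuclei lay between -0.17 and 0.14. Their part in these differences was not tested.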

How the data were processed

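Counts are UMIs per gene and barcode as deposited by the authors, written by Cell Ranger 8.0.1 per the file headers. STAR is named in the submitters' processing notes without a version. The labels give the build as GRCm39 and as mm10, and 33185 of 33696 gene identifiers were found in GENCODE M39 (GRCm39), from which positions came. Nuclei with at least 500 genes, at most 5% mitochondrial UMIs and at most 10000 UMIs were kept. Members and gene lists were chosen with earlier results of these data known. UMIs were summed per library over the chosen and the other nuclei and scaled to CPM, with exact Poisson, conditional and Clopper-Pearson intervals. A count of 0 was set to 3 counts in ratios. Macrophage nuclei had at least 3 of 11 macrophage markers and at most 3 mesenchymal ones, a choice made after seeing the data. Doublets were not removed: Scrublet in scanpy 1.11.5 marked 0.00924% and 0% of nuclei, so its highest scores were removed only as an alternative. Named genes were the 25 highest and 8 lowest against other nuclei and the 12 farthest each way between libraries with an interval excluding 0. Further ones were the 6 farthest each way within the chosen nuclei and the 5 farthest above each of the 3 compared groups. Examples of each list were also named. Xist, Tsix and Y-linked genes were left out. TMM factors came from edgeR 4.0.16. Scripts were tested on simulated data. Some genes that the naming rule or a list holds are not reported here.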

Additional observations from a re-analysis of the deposited data

Results flagged for a closer look

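9630013A20Rik stood out because its direction differed between sets of nuclei. Its log2 ratio of Serpine2 cOE over control was -1.72 (-2.64 to -0.87) in the chosen nuclei and 0.21 (0.04 to 0.39) in other nuclei. The difference between these ratios was not tested, since each group was 1 library. The value in the chosen nuclei rested on 16 UMIs in Serpine2 cOE and 47 in control. It was -0.54 when 4 of the 7 rule genes were required and -0.59 without the upper limit of UMIs, both outside its first interval.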

How the results depend on the processing

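The share of chosen nuclei in Serpine2 cOE over control was between 0.827 and 0.906 under 6 alternatives and 0.803 with the rule applied after thinning. Genes higher and lower than in other nuclei numbered 193 to 319 and 783 to 1455 under 11 alternatives. With a minimum of 20 UMIs, 229 genes were 2-fold higher in Serpine2 cOE and 230 lower, and with UMIs summed after thinning 29 were lower; the other alternatives gave 48 to 101 higher and 45 to 65 lower. Of 330 alternative values for genes between the libraries, 304 stayed within the first counting interval and 24 left it without counting as reversed. Among genes whose first interval left out 0, 2 values changed sign: Mecom (-1.06) and 2310002F09Rik (-0.064), both with the rule applied after thinning; the cause was not tested. Genes whose first interval held 0 changed sign too: Lgr5 (up to 0.70), Serpine2 (0.025) and Tbx18 (up to 0.078). Of 340 values against other nuclei, 312 stayed, 28 left it and 0 reversed. No paired analysis was possible because each group was 1 library; leaving out a replicate was not possible either. Depth limits genes under about 50 UMIs.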
